A study of Mus musculus with 6 samples.

Results

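The proteins of the small (40S) ribosomal subunit were followed in ribosome footprints of mouse blood progenitor cells with and without Mov10, an RNA helicase. The members were all protein-coding genes of the deposited table whose symbol starts with Rps and a digit, together with Rpsa and Fau. The Rps6k kinase genes and Rps19bp1 were left out, since they do not encode parts of the subunit. Of 48 rows with such symbols 11 were left out in this way, which left 37 members among 56748 rows, and 34 of the members had reads, among 28136 rows with reads.

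Ribosome profiling sequences the 24 to 36 nt stretches of mRNA that ribosomes shield from RNase I, here after a treatment with cycloheximide, which stops ribosomes on the mRNA. The samples were Lin-c-Kit+ cells, an immature blood cell gate (labelled hematopoietic stem cells), collected 12 days after 4.5 Gy of irradiation. The 3 WT libraries came from wild-type mice and the 3 knockout libraries from Mov10 knockout mice, and both groups had been irradiated. No label gives the strain, age, knockout allele or any pooling of animals, or says that replicates are separate animals, so the spread behind each p-value may be technical.

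The 40S subunit carries the mRNA and holds the decoding center, where codons meet tRNA anticodons. It is built in the nucleolus from 18S rRNA and ribosomal proteins, matured in the cytoplasm, and joined by initiation factors before it scans an mRNA. In blood cell formation its proteins are known from Diamond-Blackfan anemia, a human red cell failure caused by the loss of 1 copy of any of several ribosomal protein genes. Their mRNAs typically begin with a terminal oligopyrimidine tract, an unbroken run of C and T at the transcription start that ties their translation to mTOR signalling and the protein LARP1.

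Start sites were available in RefSeq (build GRCm38.p6) for 27 of the members, as windows around each start. A run of 8 or more C or T bases on the coding strand within 50 bases of a listed start was found in 20 of these 27 members, or 74.1%, and at 35.7% of 32851 RefSeq starts. Some members have several listed starts, and a member was counted if any of them had a run. The 35.7% counts single starts, so the shares are in unlike units, which can raise that of the members. The run was present in 2 of 3 members whose footprints were higher in the knockout and in 6 of 8 whose footprints were lower. Of those not called, 11 of 14 had it. The share was thus similar in the 3 classes, with few members in each. The following 5 stretches of 30 bases are shown because they place this run at or near the listed start in members of each class, with the run in capitals.
Rps18, higher in the knockout, chr17:33955648-33955677, minus strand: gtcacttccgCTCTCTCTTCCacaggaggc
Rps6, lower, chr4:86857349-86857378, minus strand: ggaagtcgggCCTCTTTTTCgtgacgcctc
Rps12, lower, chr10:23787182-23787211, minus strand: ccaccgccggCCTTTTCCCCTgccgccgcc
Rps10, lower, chr17:27635227-27635256, minus strand: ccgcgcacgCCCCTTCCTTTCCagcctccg
Fau, not called, chr19:6057937-6057966, plus strand: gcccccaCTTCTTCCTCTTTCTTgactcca

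Counting the first transcribed base as 1 and the base before it as -1, the run began at -2 in Rps18, at -1 in Rps6, at 9 in Rps12 and at -3 in both Rps10 and Fau. The runs were 11, 10, 11, 13 and 16 bases long in the same order. A match describes letters only.

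A second element is shown because 3 members carry it and all 3 were lower in the knockout. The palindrome TCTCGCGAGA, read the same on both strands, lay within the 250 bases before to 50 bases after the start of Rps6, Rps19 and Rps28, or 11.1% of 27 members, against 0.466% of all RefSeq starts. Here too members were counted over all their listed starts and the 0.466% over single starts. Among members with a listed start these letters were held by 3 of 8 lower, 0 of 3 higher and 0 of 14 uncalled ones. The element was picked with the calls known, so this match is no test of a link. The calls of Rps19 and Rps28 were lost under 12 of 23 and 8 of 23 alternative analyses. The palindrome is in capitals.
Rps6, chr4:86857399-86857428, minus strand: cgccggctgtTCTCGCGAGAacttagagcg
Rps19, chr7:24884574-24884603, plus strand: cactccgaaaTCTCGCGAGActcgacgccc
Rps28, chr17:33824544-33824573, minus strand: ccgcgtgcggTCTCGCGAGAgcgaaagtga

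The letters CCGGAAG, a core recognized by ETS factors, were found on either strand in 11 of 27 members, or 40.7%, and at 8.86% of all starts. They occurred in 1 of 3 higher, 4 of 8 lower and 6 of 14 uncalled members. AAGATGGC, a core recognized by YY1, was held by 3 of 27 members and by 2.75% of all starts. Members were again counted over all their listed starts, and the shares of all starts over single starts. These are descriptions of the windows.

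The libraries held 2260348 to 2499634 reads in WT and 1118345 to 1352517 in the knockout, so that 1 read was worth 0.614 to 0.681 normalized reads in WT and 1.34 to 1.62 in the knockout. Footprints on Mov10 itself were 107 ± 3.13 normalized reads (SD, n = 3) for WT and 62.1 ± 23.4 (n = 3) for the knockout, a log2 difference of -0.84 that did not pass the test (limma, adjusted p = 0.0598). Kit, which defines the gate, was at 1099 ± 15.8 and 1122 ± 35.7, and all 7 progenitor markers had reads, with summed levels of 1499 to 1524 in WT and 1412 to 1510.0 in the knockout. All 10 neutrophil markers had reads. Camp, 1 of the 5 rows of the kind described for Rps29, was left out of their sum. The sum was 29467 to 35092 in WT and 43702 to 45751 in the knockout. The higher knockout sum rests on Mpo, which went from 12660 to 29006. S100a8 went from 2246 to 371, Prtn3 from 1745 to 878, Ngp from 2099 to 1259 and Mmp8 from 188 to 52.6. Ltf and Elane also had lower means, and S100a9 and Ly6g higher ones. The 8 erythroid markers summed to 623 to 665 and 1805 to 1849, and the 6 B cell markers to 900.1 to 956 and 1723 to 1765. Sums were also apart for the 5 eosinophil and mast cell markers (12685 to 15723 and 19269 to 21191), the 4 megakaryocyte markers (318 to 383 and 445 to 686, with Gp1bb at 0) and the 5 monocyte markers (663 to 727 and 746 to 807). T cell sums (52.2 to 71.4 and 49.2 to 80.5) overlapped. Not every marker moved with its sum. Mean Csf1r and Adgre1 were higher in the knockout, but the monocyte markers Cd68 (36.5 to 16.4), Ly86 (75.9 to 42.6) and Ccr2 were lower. Itga2b, from 329 to 505, made up most of the megakaryocyte sum. Hba-a1 (22.96 to 0.539) and Hbb-bs had lower means, and the other erythroid markers higher ones. Of the B cell markers Cd79b was lower (36.9 to 23.9), Ms4a1 was level and the others were higher. The part of these marker shifts in the results below was not tested, and in such bulk samples a change in the number of cells of a type and a change in RNA per cell cannot be told apart.

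**Figure D1:**
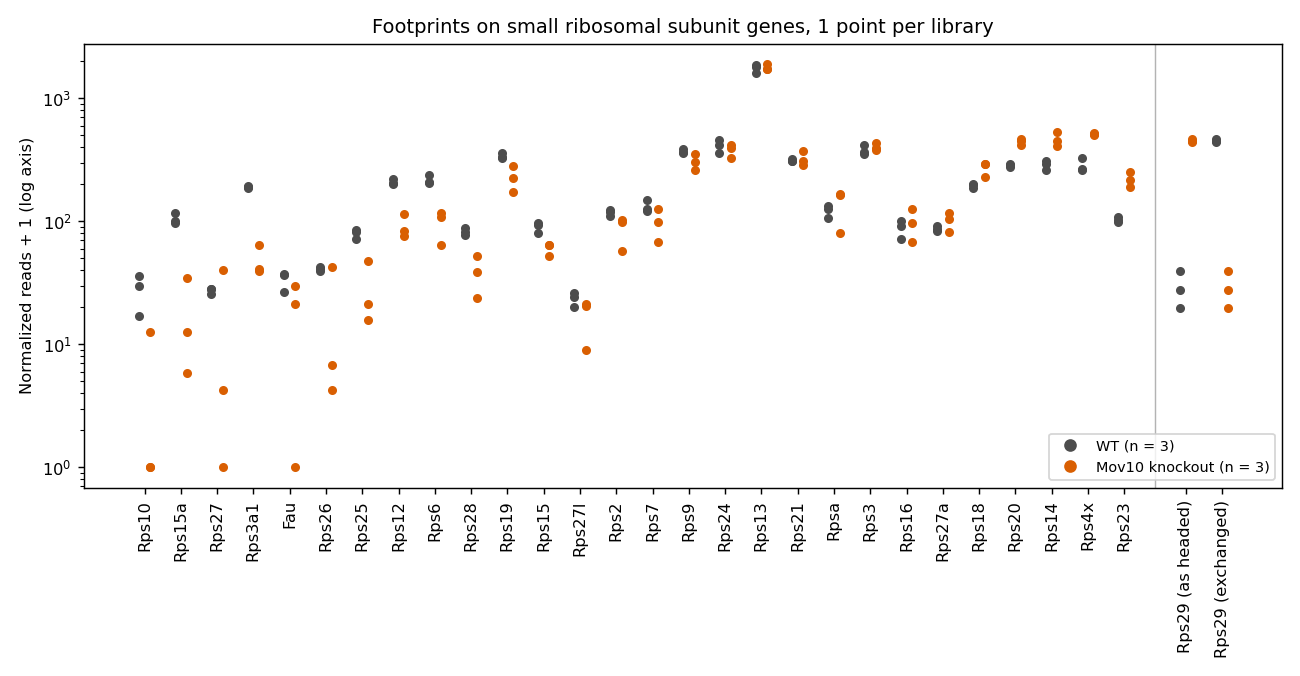
Normalized reads plus 1 (log axis) of 28 members tested, 1 point per library, ordered by log2 fold change, with WT in grey and knockout in orange. Rps29 stands at the right in both readings of its row. Knockout points are lowest and most scattered at the left, where Rps10 and Rps27 reach 0 reads.

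Footprints on the subunit's genes moved in both directions. Of the 32 members tested, 6 rose in the Mov10 knockout and 9 fell, so that 15, or 46.9%, were called, beside 21.2% of the 17114 genes tested (limma on log2(value + 1), Benjamini-Hochberg adjusted p under 0.05 over all genes). By direction, 18.8% of the members were higher, beside 10.3% of all genes, and 28.1% were lower, beside 10.9%. The members' median log2 fold change was -0.38, against -0.17 for all genes. Rps4x, Rps23, Rps20, Rps14 and Rps18 were among those that rose, and Rps3a1, Rps15a, Rps12, Rps6, Rps10, Rps25, Rps28 and Rps19 among those that fell. Calls were more frequent among genes with more reads. At a mean of at least 50 normalized reads, 1532 of 6307 genes rose and 1158 fell, with a median of 0.009. Of the members left by that filter 6 rose and 8 fell, with a median of -0.12. The shares of all genes above are therefore not matched to the members' read level.

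The rises were smaller than the falls. Log2 fold changes ran from 0.47 to 1.08 among the higher members and from -3.50 to -0.61 among the lower ones. In 19 of the 32 members, or 59.4%, the WT and knockout libraries did not overlap, beside 39.8% of all genes tested. The knockout was the higher group in 6 of these and the lower group in 13, beside 16.9% and 22.9% of all genes. All 15 called members were among them, and the other 4 included Rps15, Rps2 and Rps9. In the authors' deposited table the same 15 members, counted without Rps29, passed an adjusted p of 0.05 in the same direction.

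These counts depend on the test and the scaling. With library totals in place of size factors, which moved the median of all genes to -0.37 and the members' median to -0.61, 5 members were higher and 12 lower, and over all genes 1280 were higher and 2852 lower in place of 1757 and 1871. The log2 fold changes of Rps14, Rps20 and Rps18 became 0.45, 0.41 and 0.24 under that scaling. Without WT replicate 1, 2 or 3 the count of lower members dropped to 2, 3 and 2, and without a variance trend it dropped to 5, beside 3 higher.

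**Figure D2:**
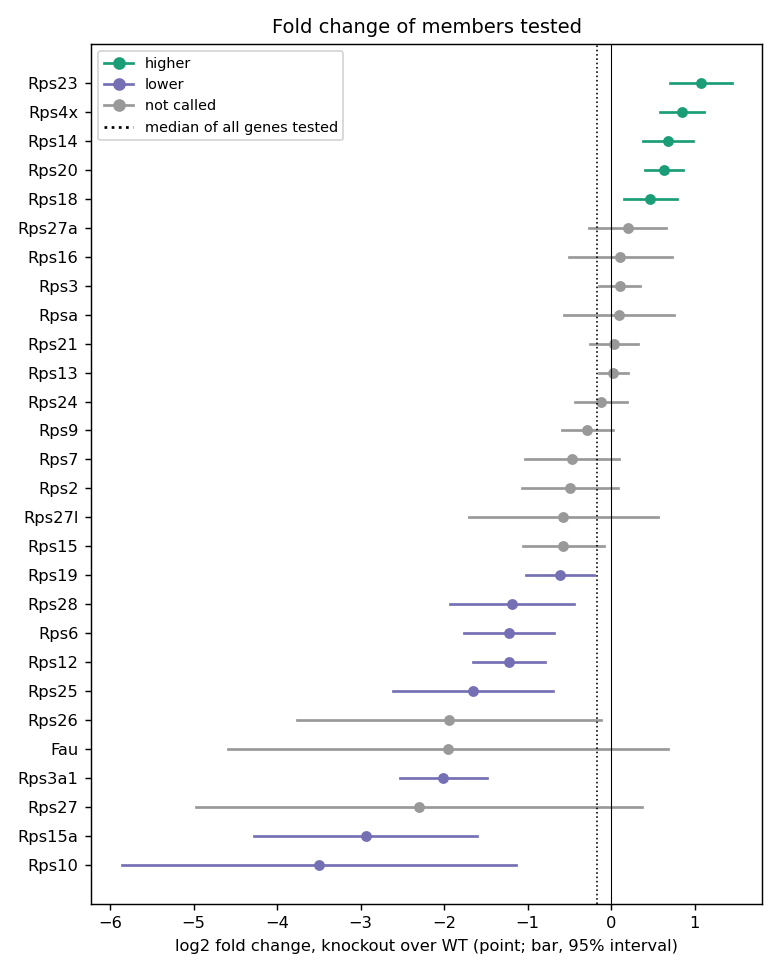
Log2 fold change of 28 members tested, knockout over WT, with 95% intervals from limma. Green marks 5 higher, violet 8 lower and grey 15 uncalled members, and the dotted line is the median of all genes tested (-0.17). Intervals are widest for Rps10, Rps27 and Fau, which have few reads.

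On the head of the subunit, which carries the proteins around the mRNA entry and the tRNA sites, 13 members were tested. Of these 3 rose and 5 fell, beside 10.3% and 10.9% of all genes, and the median log2 fold change of -0.16 was close to the -0.17 of all genes.

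Rps20 (chromosome 4, 3831334 to 3835665, GRCm39), a head protein next to the mRNA entry, had 277, 288 and 289.6 in WT and 417, 446 and 469 in the knockout. The lowest knockout library was well above the highest WT library, with a log2 fold change of 0.64 (SE 0.10, limma adjusted p = 0.00349). The call was lost only without the variance trend, at an adjusted p of 0.0698, the highest of a range that begins at 2.72e-08. Rps18, which sits at the top of the head against the large subunit, had 201, 196 and 187 in WT and 294, 229.7 and 292 in the knockout. Its groups did not overlap, with knockout replicate 2 the lowest of its group and nearest to WT. The log2 fold change of 0.47 (SE 0.14, limma adjusted p = 0.0443) is the least stable of the rises. It lost its call under 14 of 23 alternatives, among them the omission of any library but knockout replicate 2, with adjusted p from 0.00374 to 0.241. Part of the Rps18 gene overlaps Vps52 on the opposite strand, which had 79.5 and 69.1 normalized reads, and whether counting used the strand is not given in the sources used here.

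Among the head proteins that fell, Rps12, a protein of the beak of the head, had 222, 201 and 203 in WT and 83.1, 74.4 and 113 in the knockout. Each knockout library was far under the lowest WT library. The level was 2.32-fold lower (log2 fold change -1.22, SE 0.19, limma adjusted p = 0.00323), and the call held under all 23 alternatives.

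Rps25, a head protein that viral internal ribosome entry sites depend on, had 70.8, 81.6 and 83.8 in WT and 14.8, 46.9 and 20.3 in the knockout. Knockout replicate 2 stood above the other two, which rest on 11 and 14 reads. The gene overlaps Trappc4 (58.4 and 69.8) and Ccdc84 (34.1 and 23.7) on the opposite strand. With a log2 fold change of -1.66 (SE 0.42, limma adjusted p = 0.0255), its call was lost under 7 of 23 alternatives (adjusted p from 0.000416 to 0.123), including the omission of any WT library or of knockout replicate 1 or 3.

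Rps28, a small head protein near the mRNA exit, had 87.6, 76.7 and 80.4 in WT and 51.0, 22.6 and 37.6 in the knockout. All 3 knockout libraries lay below WT, with a spread among them wider than the spread of WT. Its log2 fold change was -1.19 (SE 0.32, limma adjusted p = 0.0334), and 8 of 23 alternatives ended the call (adjusted p from 0.00165 to 0.147), among them the omission of any WT library or of knockout replicate 3. Kank3, which overlaps it on the opposite strand, had 21.2 and 13.6.

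Rps19, a head protein and the gene first linked to Diamond-Blackfan anemia, had 329, 333 and 359 in WT and 283, 225 and 172 in the knockout. The groups did not overlap, but the knockout libraries were spread over a wide range. Its fall was the smallest of those called, a log2 fold change of -0.61 (SE 0.18, limma adjusted p = 0.0412), and 12 of 23 alternatives ended the call (adjusted p from 0.00308 to 0.170), among them the omission of any library but knockout replicate 1.

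Rps10, a head protein at the mRNA entry that is tagged with ubiquitin when ribosomes stall, had 35.1, 15.96 and 28.6 in WT, and 0, 0 and 11.6 in the knockout. The knockout value rests on 8 reads in knockout replicate 3 alone, and 3 reads, the floor used here for a library with none, equal 4.02 and 4.85 normalized reads in knockout replicates 1 and 2. The log2 fold change of -3.50 (SE 1.04, limma adjusted p = 0.0445) had the widest interval of the called members, from -5.86 to -1.13. It lost its call under 12 of 22 alternatives (adjusted p from 0.00566 to 0.188), among them the omission of any library but knockout replicate 3, and a pseudocount of 0.1 moved the value to -5.69.

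Rps3, Rps15, Rps16 and Rps27a are head members that were not called. Rps3, which lines the mRNA entry and also acts in DNA repair, had 413, 363 and 352 in WT and 396, 433 and 382 in the knockout, overlapping groups with an interval of the log2 fold change from -0.14 to 0.35. Rps15, which contacts the tRNA in the decoding region, had 92.2, 95.1 and 79.0 against 63.0, 51.8 and 63.7. Every knockout library was below WT, yet its log2 fold change of -0.57 did not pass (limma adjusted p = 0.0915), except with library totals (-0.80, adjusted p = 0.0287, the lowest of a range up to 0.283). Rps16 and Rps27a, the second made as a fusion with ubiquitin, had means of 86.8 and 86.7 in WT and 96.0 and 101 in the knockout, with overlapping libraries.

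On the body and platform, which hold the decoding center and the side where the mRNA leaves, 18 members were tested. Of these 3 rose and 4 fell, beside 10.3% and 10.9% of all genes, with a median log2 fold change of -0.38 against -0.17 for all genes. Platform proteins occurred on both sides, with Rps14 among those that rose and Rps3a1 among those that fell.

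Rps23, the protein that reaches into the decoding center, had 108, 97.6 and 102 in WT and 215, 252 and 188 in the knockout. The lowest knockout library was far above the highest WT library. This was the largest rise among the 32 members tested, 2.13-fold (log2 fold change 1.08, SE 0.16, limma adjusted p = 0.00280), and it was called under all 23 alternatives.

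Rps4x, an X-linked body protein, had 326, 263 and 263 in WT and 519, 509.5 and 504 in the knockout. The knockout libraries were nearly equal, while WT replicate 1 stood above the other WT libraries. The 1.80-fold difference (log2 fold change 0.85, SE 0.12, limma adjusted p = 0.00165) kept its call under all 23 alternatives. Rps4l, an autosomal relative outside the member rule, had 3.07 ± 2.14 in WT and 0.482 ± 0.835 in the knockout.

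Rps14, a platform protein whose human gene lies in the region lost in the 5q- syndrome, had 289.6, 263 and 309 in WT and 447, 535 and 407 in the knockout. The groups were well apart, with a log2 fold change of 0.68 (SE 0.13, limma adjusted p = 0.00858). The call was lost without the variance trend and without WT replicate 2, at an adjusted p of up to 0.0850 over a range that begins at 2.24e-06. Ndst1, which overlaps Rps14 on the opposite strand, had 122 and 151.

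Rps3a1, a large platform protein and a contact of initiation factor 3, had 191, 193 and 185 in WT and 40.2, 38.8 and 63.7 in the knockout. WT libraries were nearly equal and far above any knockout library. The level was 3.99-fold lower (log2 fold change -2.01, SE 0.23, limma adjusted p = 0.000681), the smallest p of the falls, and it was called under all 23 alternatives. The related Rps3a3, outside the member rule, had 4.14 ± 1.47 in WT and 2.10 ± 2.49 in the knockout.

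Rps15a, a body protein that contacts 18S rRNA, had 117, 96.3 and 98.8 in WT and 33.5, 4.85 and 11.6 in the knockout. The knockout values rest on 25, 3 and 8 reads, and all lie far below WT. With a log2 fold change of -2.94 (SE 0.58, limma adjusted p = 0.00999) its mean was 6.25-fold lower, and the call was lost only when a WT library was left out, with adjusted p up to 0.0705 over a range that begins at 6.66e-08. With the reads of its pseudogenes added, the log2 fold change was -1.41, still called.

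Rps6, which S6 kinases phosphorylate downstream of mTOR, had 235, 209 and 206 in WT and 115, 63.1 and 107 in the knockout. The highest knockout library was well below the lowest WT library. A log2 fold change of -1.22 (SE 0.24, limma adjusted p = 0.00882) corresponds to a 2.27-fold lower mean, and the call was lost only with any WT library left out, with adjusted p from 3.74e-07 to 0.0606.

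Rps13, a platform protein that bridges to the large subunit, was a member with many reads, 1601, 1855 and 1808 in WT and 1896, 1736 and 1722 in the knockout. The groups overlapped, and the 95% interval of the log2 fold change was narrow, from -0.15 to 0.20 (limma adjusted p = 0.838). Under cyclic loess, which levels fold changes along abundance, its value became -0.53 with an adjusted p of 0.00337, the lowest of a range up to 0.984.

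Rps21 and Rps24, the latter a Diamond-Blackfan anemia gene, also overlapped between genotypes. Their log2 fold changes were 0.04 (interval -0.25 to 0.33) and -0.12 (interval -0.43 to 0.19). Rps9, a body protein that helps keep decoding accurate, had 388, 365 and 356 in WT and 354, 304 and 259 in the knockout. Those groups did not overlap, but the difference did not pass (log2 fold change -0.28, limma adjusted p = 0.174). It was called lower with library totals (-0.51), with cyclic loess (-0.48) and without knockout replicate 1 (-0.39), with adjusted p from 0.0256 to 0.413 over the alternatives. Rps2, which lines the mRNA entry, had 109.7, 118 and 122 against 97.9, 102 and 56.4. It too was separated without passing (log2 fold change -0.49, limma adjusted p = 0.209). Rps7 and Rpsa, the latter known also as the laminin receptor, had overlapping libraries and log2 fold changes of -0.47 and 0.10.

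Another 3 platform and body members had few reads and scattered knockout values. Rps26, which lies at the mRNA exit, had 41.6, 38.7 and 40.2 in WT and 41.6, 3.23 and 5.79 in the knockout. Rps27, a zinc-binding protein, had 24.7, 27.0 and 27.3 in WT and 38.9, 3.23 and 0 in the knockout. Knockout replicate 1 was at or above WT in both genes, whereas the other knockout libraries held 0 to 4 reads. Neither difference passed (limma adjusted p = 0.123 and 0.204). Without knockout replicate 1 both were called lower, at log2 fold changes of -2.94 and -3.73 and adjusted p of 0.00717 and 0.0193, the lowest values of ranges up to 0.322 and 0.535. Fau, whose protein is made as a fusion with a ubiquitin-like domain, had 36.4, 35.6 and 25.9 in WT and 20.1, 0 and 28.9 in the knockout. Its groups overlapped, and knockout replicate 2 had no read. Their log2 fold changes were -1.94, -2.30 and -1.95 by limma in the order of Rps26, Rps27 and Fau, and smaller by edgeR, at -1.27, -0.92 and -1.04. Without knockout replicate 2 the value of Fau was -0.40, and without knockout replicate 3 that of Rps27 was -1.07.

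Rps27l, a close relative of Rps27 whose human gene responds to p53, had 25.3, 23.3 and 19.1 in WT and 8.05, 19.4 and 20.3 in the knockout. Those groups overlapped (log2 fold change -0.57, interval -1.70 to 0.56). Of the other members, Rps23rg1, a retrogene of Rps23, had 1 read in all, in WT replicate 3, and was below the mean of 1 normalized read needed for the test. Rps18-ps5, Rps18-ps6 and Rps27rt had no reads in any library, at floors of 1.84 to 2.04 normalized reads in WT and 4.02 to 4.85 in the knockout.

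Rps27rt is shown in sequence because it limits what its count of 0 can say. RefSeq's windows of Rps27 and Rps27rt share a run of 38 bases, of which 30 are given here in capitals because all are identical, and reads that fit both copies may have been dropped or assigned to one.
Rps27, chr3:90213614-90213643, minus strand: CCGGCGGTGACGACCTCCCTACGAGAACAT
Rps27rt, chr9:114982706-114982735, minus strand: CCGGCGGTGACGACCTCCCTACGAGAACAT

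Rps29, a zinc-binding head protein and a Diamond-Blackfan anemia gene, has to be given in both readings. Divided by what 1 read is worth in its own library, its values miss whole numbers by up to 0.432 of a read, unlike those of the other members. Divided by the step of the library with that number in the opposite genotype, they miss whole numbers by at most 5.14e-07. As headed, Rps29 had 26.8, 38.8 and 18.8 in WT and 453, 462 and 443 in the knockout, which is 16.1-fold higher in the knockout (log2 fold change 4.02, SE 0.25, limma adjusted p = 2.77e-05). With the genotypes exchanged, the same values are 697, 753 and 650 whole reads in WT and 20, 24 and 13 in the knockout, and the change is a fall of the same size (log2 fold change -4.02, the same adjusted p). The groups stood far apart in either reading. The authors' deposited table lists a log2 fold change of 1.21 for it, with an adjusted p of 2.47e-55. Which reading holds was not settled, and Rps29 was kept out of the counts above. Added as headed it makes 7 members higher and 9 lower, and exchanged 6 higher and 10 lower.

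Levels were compared between genes only as normalized reads per kilobase of the table's gene length, which includes untranslated and alternative exons. In WT the lowest density was that of Rps10, at 11.5, and the median over the members was 71.3. In the knockout Rps10 was again the lowest, at 1.67, and the median was 60.2. Rps13 stood near the top in both genotypes, at 652 ± 50.1 in WT and 663 ± 36.0 in the knockout. Rps21, at 386 ± 8.72 and 399 ± 56.0, was likewise among the highest, and neither density differed between the genotypes by more than its spread. Among the 32 ranked members Rps3a1 went from rank 6 to rank 19, while Rps23 went from 14 to 7 and Rps20 from 17 to 10. Neighbours from rank 13 to 21 in WT, Rps3 to Rps2, lay between 83.9 and 63.7 per kilobase, with SDs of 1.64 to 11.8, so most of that order is within the spread.

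**Figure D3:**
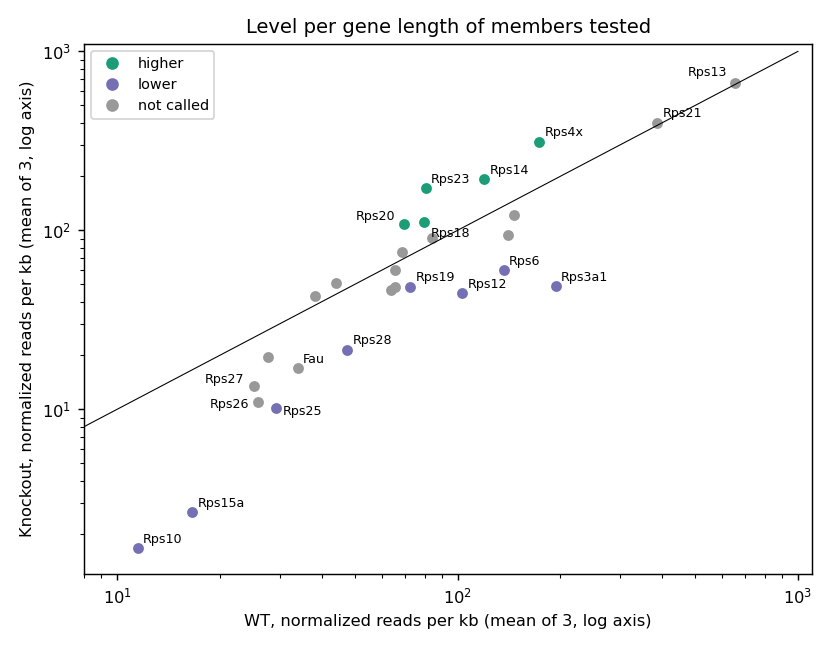
Mean normalized reads per kilobase of 28 members tested in WT (x) and knockout (y), both log axes, n = 3 each, with the line of equality. Rps13 and Rps21 lie near the line at the top, Rps3a1 far below it, and Rps10 and Rps15a at the bottom left.

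Across the 32 members the WT density and the log2 fold change had a Spearman correlation of 0.41, against -0.08 over all genes tested. This describes these genes in the same 6 libraries, and the fold change shares its WT values with the density. Of the 5 members with a WT mean under 50 normalized reads 0 rose and 1 fell, of the 11 from 50 to 150 there were 1 and 3, and of the 16 above there were 5 and 5. Shares of all genes in these classes were not computed. Since genes with more reads were called more often, the counts show no trend particular to the members.

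Knockout libraries were less alike than WT libraries on these genes. The coefficient of variation was larger in the knockout in 28 of 32 members, or 87.5%, beside 82.4% of all genes tested. Over the members its median went from 7.13% for WT to 26.9% for the knockout, whose libraries also held fewer reads. Rps4x, Rps13 and Rps3 were among the exceptions, with 1.52%, 5.43% and 6.61% in the knockout.

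Summed over the 32 tested members and Rps23rg1, small subunit genes took 0.538% ± 0.00345 of all reads in WT (n = 3) and 0.456% ± 0.00708 in the knockout (n = 3), without overlap. Without Rps29, the sums in normalized reads were 8310 ± 52.5 and 8271 ± 103, which differ by less than the spread. With Rps29 added as headed they were 8338 ± 44.2 in WT and 8724 ± 112 in the knockout. Exchanged, they were 8762 ± 45.3 and 8299 ± 112. Neither reading left an overlap, with the knockout higher as headed and lower exchanged. What the total shows thus depends on the reading of Rps29, and on scaling by all reads or by size factors. Within the sum without Rps29, the 6 higher members went from 17.99% to 30.6% of member reads and the 9 lower members from 17.4% to 7.46%. The uncalled members went from 64.6% to 61.9%. The first pair of shifts restates the calls.

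Large subunit genes, which are made in matching amounts with the small subunit in growing cells, took 0.547% ± 0.0106 of reads in WT and 0.348% ± 0.0108 in the knockout. The ratio of small to large subunit reads, which does not depend on scaling, was 0.971 to 0.999 in WT (0.984 ± 0.0144) and 1.27 to 1.38 in the knockout (1.31 ± 0.0575). Each knockout library was above each WT library by more than the spread within either group. With Rps29 and Rpl27, a large subunit gene with the same kind of row, added, it was 0.982 and 1.37 as headed and 1.03 and 1.31 exchanged. Of 47 large subunit genes tested, 5 rose and 18 fell, beside 10.3% and 10.9% of all genes. Their median log2 fold change was -0.70, against -0.17 for all genes. Among the 5 was Rpl36-ps4, a row with a pseudogene symbol that had 0 reads in each WT library and 5 in each knockout library. Rplp0, which anchors the stalk of the large subunit, went from 529 ± 19.6 to 179.6 ± 24.9 (limma adjusted p = 0.000106), and Rpl30, Rpl31 and Rpl9 fell by 1.86, 1.46 and 1.30 on the log2 scale. Rpl17 rose, from 60.6 ± 1.21 to 163 ± 21.9 (limma adjusted p = 0.00130).

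**Figure D4:**
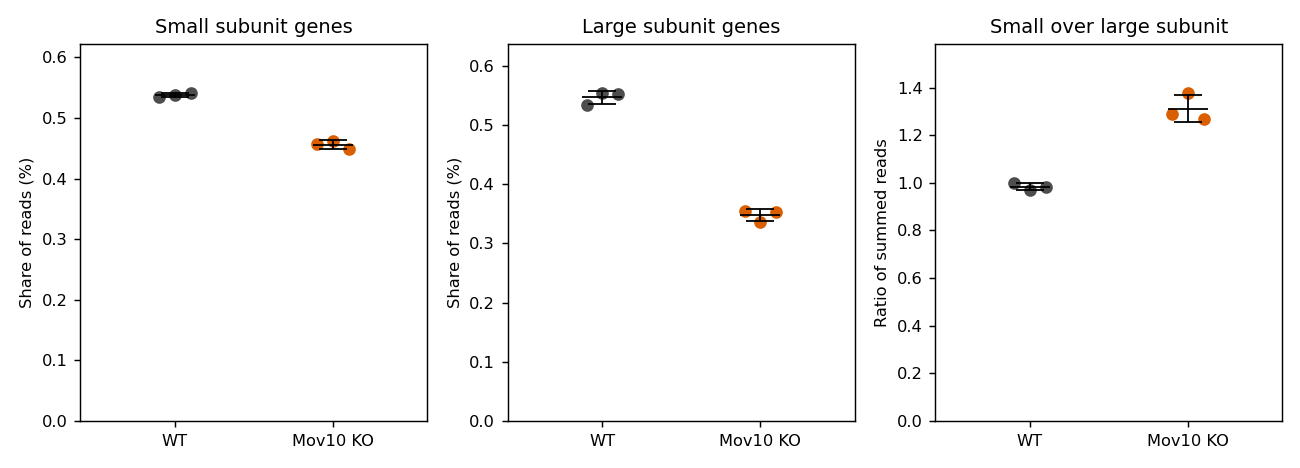
Share of all reads on small subunit genes (left), on large subunit genes (middle) and the ratio of their reads (right), 1 point per library with the mean and SD (n = 3). Both shares are lower in the knockout, and the ratio is 0.971 to 0.999 in WT and 1.27 to 1.38 in the knockout.

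Of the 11 small subunit genes known as human Diamond-Blackfan anemia genes, 10 were tested. Of these 2 rose, Rps20 among them, and Rps15a, Rps28, Rps19 and Rps10 fell, beside 10.3% and 10.9% of all genes. The median log2 fold change was -0.90, against -0.17 for all genes. The calls of Rps28, Rps19 and Rps10 were lost under 8 of 23, 12 of 23 and 12 of 22 alternatives. Rps7, Rps24, Rps26 and Rps27 were not called, and Rps29 is the one with an unsettled direction.

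Several pathways act directly on the subunit, and their counts are read beside 10.3% of all genes higher, 10.9% lower and a median of -0.17. Of 26 factors tested that mature the 40S subunit 10 rose and 3 fell, with a median log2 fold change of 0.42. Among them Utp14a, a protein of the early pre-ribosome, had 224, 231 and 228 in WT and 522, 543 and 501 in the knockout (log2 fold change 1.19, limma adjusted p = 0.000109). Bms1, Riok1 and Mphosph10, a GTPase, a kinase and a nucleolar protein of the same pathway, rose 1.90-, 2.01- and 2.05-fold. Pdcd2l fell from 97.1 ± 6.74 to 50.7 ± 9.13 (limma adjusted p = 0.0207).

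Of 25 factors that bind the 40S subunit at initiation 8 rose and 2 fell, with a median of 0.16. The 4 with the smallest p were all subunits of initiation factor 3, with Eif3e going from 565 ± 8.04 to 1766 ± 218 (log2 fold change 1.63, limma adjusted p = 2.23e-05). Eif3m, Eif3c and Eif3a rose 3.55-, 2.09- and 1.91-fold. Mcts1, which helps recycle the subunit, fell from 59.2 ± 5.23 to 6.31 ± 4.26 (limma adjusted p = 0.00764).

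Of 17 regulators and quality control factors found on the subunit 6 rose and 2 fell, with a median of 0.01. Rack1, a scaffold protein that is itself a stable part of the 40S head and lies outside the naming rule, had 1488, 1411 and 1369.6 in WT and 511, 532 and 726 in the knockout. It fell by 1.29 on the log2 scale (limma adjusted p = 0.000350), with no overlap. Serbp1, which occupies the mRNA channel of idle ribosomes, rose from 1075 ± 37.4 to 1970.4 ± 143 (limma adjusted p = 0.000117), and G3bp2 and Rnf14 rose 3.26- and 1.93-fold.

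Of 15 S6 kinase genes and mTOR regulators 0 rose and 2 fell, with a median of -0.22, so the share that fell and the median were both near those of all genes. Rps6kb1, which encodes the kinase that phosphorylates Rps6, had 166, 184 and 186 in WT and 83.1, 51.8 and 81.0 in the knockout (log2 fold change -1.33, limma adjusted p = 0.00431). Rptor, the scaffold of mTOR complex 1, went from 273 ± 29.7 to 176 ± 34.2 (limma adjusted p = 0.0320). Phosphorylation was not measured.

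Small ribosomal protein genes have many processed pseudogenes, intronless copies whose reads can be hard to tell from those of the parent. The table holds 121 named after a member, of which 60 had reads. Together they took 0.00940% ± 0.000945 of reads in WT and 0.0239% ± 0.00302 in the knockout, that is 145 ± 13.7 and 435 ± 55.8 normalized reads, so the groups did not overlap. This rise was not general, since it lay in the pseudogenes of a single member that is not reported here. Adding pseudogene reads to their parents made 7 members higher and 8 lower in place of 6 and 9. It ended the call of Rps19 (adjusted p = 0.0968, within a range from 0.00308 to 0.170) and reduced the fall of Rps15a from -2.94 to -1.41.

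The pseudogenes did not all move with their parents. Rps13-ps4 fell from 41.1 ± 7.97 to 10.4 ± 6.20 while Rps13 was not called. Rps19-ps11 and Rps15a-ps6 rose from 5.82 ± 2.79 to 27.8 ± 7.73 and from 3.84 ± 1.09 to 18.2 ± 4.19, while Rps19 and Rps15a fell. Their adjusted p by limma were 0.0370, 0.0319 and 0.0412. No source used here says how the authors' counting treated reads that match several copies, and mRNA levels, which set footprints together with translation, were not analysed here.

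**Figure D5:**
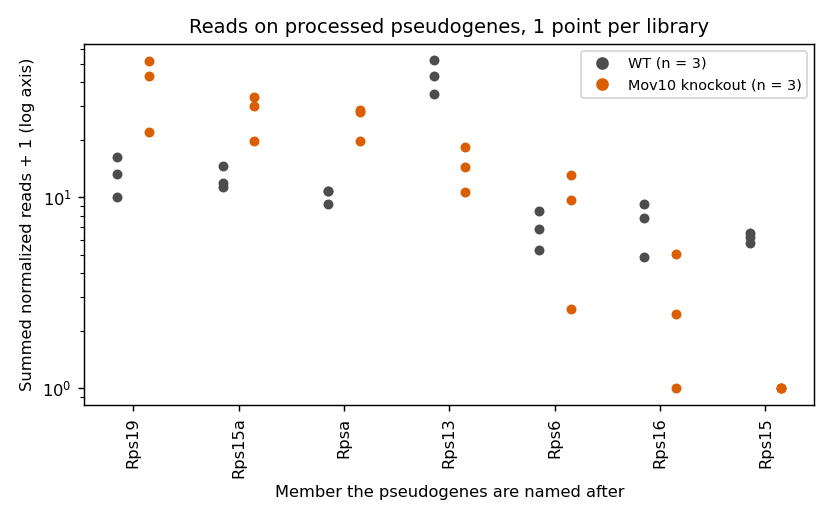
Summed normalized reads plus 1 (log axis) on the processed pseudogenes named after each of 7 members, 1 point per library, for members whose pseudogenes reach a mean of 5 in a genotype. The Rps19 pseudogenes summed to 12.2 ± 3.13 (WT) and 38.0 ± 15.4 (knockout), and the Rps13 pseudogenes to 42.4 ± 8.67 (WT) and 13.5 ± 3.83 (knockout).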

How the data were processed

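Ribosome footprints of 6 libraries, 3 WT and 3 Mov10 knockout, were analysed per gene. The deposited table holds a signal per gene and library that is a read count scaled by 1 factor for each library. The values show this, since 100% of them in each library were whole multiples of 1 step, within 0.05 of a read, apart from 5 rows, Rps29 among them, that were kept out of the fit. The log2 fold changes and p-values deposited by the authors come from a test that no source used here names. The genome build is GRCm39, per the submitters' processing notes, and no aligner, counter or annotation is named in the sources used here.

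The main test was limma 3.58.1 (R 4.3.3) on log2(value + 1), fitted to the 17114 genes whose mean reached 1 normalized read. Genotype was the only term, eBayes used a variance trend, and calls were made at an adjusted p under 0.05 (Benjamini-Hochberg). Fold changes are on this log2(value + 1) scale, and for members with libraries at or near 0 they can differ from those of a count model (Rps27 is -2.30 here and -0.92 with edgeR). edgeR 4.0.16 on the recovered whole reads called 3342 genes, against 3628 for limma. Other alternatives were DESeq2 1.42.0, other scalings, limma-voom, filters, pseudocounts, thinning to equal depth, pseudogene reads added to their parents, and each library left out. The plan held edgeR ready for raw counts, and the unit found in the table led to limma.

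The procedure was tested on simulated data for this comparison with 17114 genes. Of 100 genes given a 2-fold change limma recovered 32%, of 100 given a 4-fold change 79%, and its false calls were 5 among 16914 genes. edgeR recovered 48% and 87%, with 14 false calls. The changed genes were drawn only from those with more reads, and each gene had the same dispersion (scatter beyond sampling) in both groups. These rates therefore do not cover genes with few reads or the wider scatter of the knockout libraries. The replicate numbers do not pair the samples: deviations from the group mean of same-numbered libraries correlated at 0.012, 0.013 and -0.006 across genes. Libraries of 1 genotype differed beyond sampling noise (chi-square per degree of freedom of 1.57 to 7.24), so none was counted as a duplicate. Without molecular identifiers, the floor of 3 reads covers counting error only.

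Members are named except a few that are not reported here, which the counts and medians include. Of each list, up to 4 genes past the threshold with the smallest p are named, and 1 of the opposite direction. The members, lists and letters searched for were chosen with earlier results of these data known. Sequences are from RefSeq (GRCm38.p6), matched by symbol for 27 members, and were not converted to the build of the table. Summaries and figures used pandas 2.3.3, numpy 2.4.6 and matplotlib 3.10.9 in Python 3.11.15.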

Additional observations from a re-analysis of the deposited data

How the results depend on the processing

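Of the results of single members under the alternatives, 634 kept their direction and side of the threshold, 64 lost a call, 10 gained one and 23 changed sign. Rps4x, Rps23, Rps3a1 and Rps12 kept their calls under every alternative run. Lower members, 9 as reported, were 5 without a variance trend, 5 at an adjusted p under 0.01, and 2 to 10 with 1 library left out, and higher members, 6 as reported, were 3 without a variance trend and 4 to 6 with 1 library left out. Every fit with 1 library left out has fewer residual degrees of freedom. The fits without a WT library kept all of the more scattered knockout libraries. Over all genes they called 1592, 1385 and 1360, against 4599, 4526 and 4580 without a knockout library. The cause of this difference was not tested. The members' median of -0.38 became -0.45 with TMM, -0.61 with library totals, -0.44 with cyclic loess, -0.43 with edgeR, -0.45 with voom, -0.28 with no filter, -0.12 at a mean of at least 50, -0.30 after thinning, and -0.39 to -0.20 with 1 library left out. With a replicate block 5 members were higher and 9 lower, over all genes 3245 were called, and not every library correlated best with its own number.

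Changes of sign occurred in uncalled members near 0 and in Rps29. Rps13 became -0.044 with TMM, -0.045 with edgeR, -0.040 with voom, -0.21 with library totals and -0.53 with cyclic loess, and ran from -0.038 to 0.068 with 1 library left out. Rps16 became -0.12 with library totals and ran from -0.11 to 0.35 with 1 library left out. Rps21 became -0.031 with TMM, -0.19 with library totals, -0.14 with loess, -0.024 with edgeR and -0.037 with voom, and ran from -0.071 to 0.12. Library totals gave -0.031 for Rps27a, -0.13 for Rps3 and -0.13 for Rpsa, and loess gave -0.12 for Rps3. Rpsa became -0.0074 after thinning and ran from -0.084 to 0.45 with 1 library left out. Rps29 is -4.02 with the genotypes exchanged. The causes were not tested. Depth limits the members with few knockout reads (Rps10, Rps15a, Rps26, Rps27, Fau), since a library with 0 reads allows up to 4.02 to 4.85 normalized reads in the knockout.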
